A study of Mus musculus with 24 samples.

Results

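The keratin genes were examined in RNA of whole fat tissue from male C57BL/6J mice. They were defined as protein-coding genes whose mouse symbol consists of Krt followed by digits only, and 49 of the 49585 genes in the count tables met this rule. By their known sites of expression, 6 were grouped as simple keratins, 18 as stratified or glandular keratins, 23 as hair or inner root sheath keratins, and Krt88 and Krt222 were left without a class. On the GRCm38 genome 24 of the 49 lie on chromosome 15 and 25 on chromosome 11.

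Libraries came from 6 groups in 2 experiments. In one, mice labelled Azin2-/-, mutant for antizyme inhibitor 2, a regulator of polyamine synthesis, and their wild-type littermates (WT) ate a diet with 60% of calories from fat for 8 weeks. From these mice came 4 epigonadal (GAT) Azin2-/- libraries, 4 GAT WT libraries, 3 subcutaneous (SAT) Azin2-/- libraries and 5 SAT WT libraries, so all 16 were from mice on high-fat food. In the other, wild-type mice ate for 20 weeks either the 60% diet (SAT HFD, 4 libraries) or a diet with 10% of calories from fat (SAT LFD, 4 libraries). The labels give no animal ages and do not say which cells or exons the Azin2 mutation affects. Replicate numbers of the Azin2 experiment follow deposit order and serve as names, and the labels do not state whether both depots came from the same mice, so p-values measure the spread between these libraries, which may be technical.

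Keratins are the intermediate filament proteins of epithelial cells. Each filament is built from pairs of an acidic type I chain and a basic type II chain, and most type I genes lie in one chromosomal cluster and most type II genes in another. Simple epithelia and the mesothelium, the cell sheet that covers abdominal organs and the surface of visceral fat, use KRT7, KRT8, KRT18 and KRT19, while the basal layer of skin uses KRT5 with KRT14, its upper layers KRT1 with KRT10, and hair a separate set. Fat cells are not epithelial and carry vimentin filaments.

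Depth was 31.96 to 46.62 megareads of counted reads a library. Levels are given as counts per 1e+06 counted reads of the library (CPM), and 3 counts, the limit for a gene with 0 counts, equalled 0.0643 to 0.0939 CPM, which covers counting error only. Several libraries held transcripts of another tissue. The library labelled SAT LFD replicate 1 had 51240 summed CPM of 13 epididymis markers and 0.164 summed CPM of Hoxc10 and Tbx15, developmental regulators of subcutaneous fat, against 31.1 to 160.2 in the other 15 SAT libraries and up to 1.61 in GAT, so these markers go against its depot label. GAT WT replicate 3 had 5593 CPM of the epididymis markers, and the other 22 libraries at most 1.08. Skeletal muscle markers summed to 76230 CPM in SAT Azin2-/- replicate 2 and 67510 CPM in SAT WT replicate 3, with smaller amounts in SAT HFD replicate 6 (6953 CPM) and SAT LFD replicates 5 and 6 (25180 and 1225 CPM). Azin2 itself was at 6.73 to 11.5 CPM in SAT Azin2-/- against 14.6 to 25.95 CPM in SAT WT, and at 12.7 to 19.8 CPM in GAT Azin2-/- against 22.85 to 26.6 CPM in GAT WT, so the groups did not overlap in either depot.

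Keratin transcripts were a small fraction of fat tissue RNA in most libraries. The 49 genes together made up 20.5 to 154.8 CPM in 22 libraries, and more in GAT WT replicate 3 (501.6 CPM) and the library labelled SAT LFD replicate 1 (869.3 CPM). A median of 13 keratins had at least 3 counts in a library. Each of the 49 had at least 1 count in some library, but Krt79, Krt80, Krt10, Krt36, Krt222, Krt7, Krt18 and Krt19 were the members seen most steadily, with reads in all 24. Only 9 to 12 members passed the filter on low counts in any one comparison, and the rest could not be tested.

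**Figure D1:**
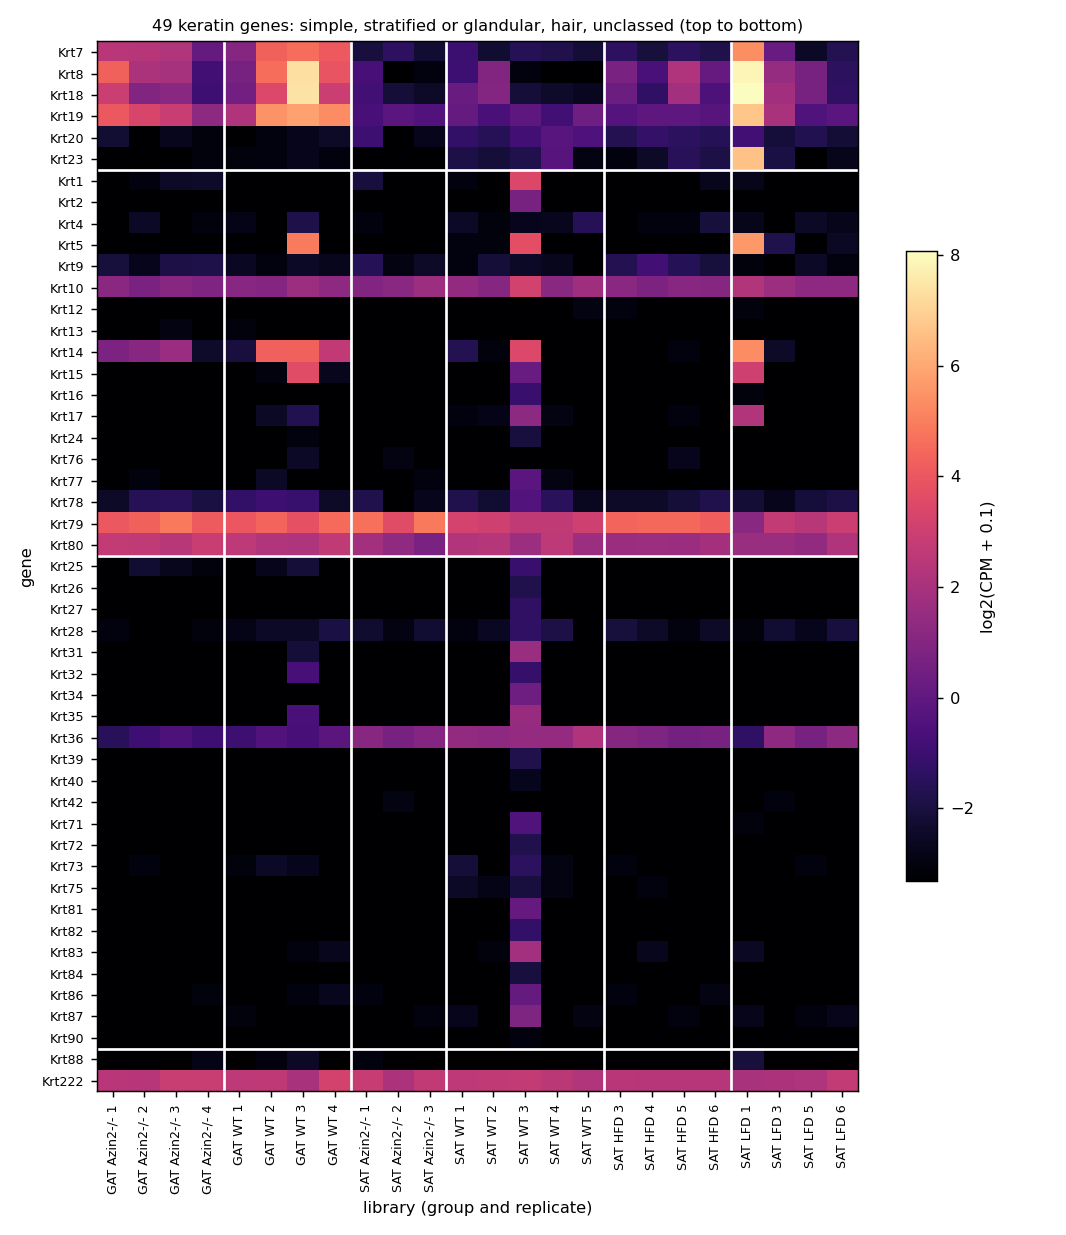
Level of each of the 49 keratin genes (rows, in the order simple, stratified or glandular, hair, unclassed) in each of the 24 libraries (columns), as log2 of CPM plus 0.1. Krt79, Krt80, Krt10, Krt36 and Krt222 form continuous rows, the simple keratins are bright in GAT and in the library labelled SAT LFD replicate 1, and the hair keratins light up in SAT WT replicate 3.

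Per length of merged exons (CPM per kilobase, RPKM), the order of the members differed between groups. Krt79 ranked first in all 4 SAT HFD libraries, at 4.42 ± 0.373 RPKM (SD, n = 4), and in all 3 SAT Azin2-/- libraries, at 4.67 ± 1.92 RPKM (SD, n = 3). The next member by mean RPKM was Krt222 in both groups (1.59 RPKM in SAT HFD and 1.79 RPKM in SAT Azin2-/-), and the ranges of Krt79 and Krt222 did not overlap in either group. In SAT WT, Krt36, Krt10, Krt222 and Krt79 had means of 1.78, 1.77, 1.76 and 1.63 RPKM, which lie within their SDs of each other. Krt79 accounted for 50.3 to 60.7% of all keratin counts in SAT HFD and 50.4 to 67.2% in SAT Azin2-/-, against 7.14 to 32.3% in SAT WT and 0.243 to 29.9% in SAT LFD. In GAT, Krt19 led by mean RPKM in Azin2-/- (4.87 RPKM), followed by Krt79 (4.38 RPKM), while in GAT WT Krt18 (32.9 RPKM) and Krt8 (25.9 RPKM) led only through replicate 3.

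The windows around 4 transcription starts are shown. Krt79 and Krt7 were called for diet or between depots, and Krt8 and Krt18 are the chain pair that was highest in the libraries with epididymis transcripts. They span 250 bases before to 50 bases after the RefSeq start (GRCm38.p6), written 5′ to 3′ on the gene's strand. Capitals mark matches, on either strand, to a TATA box (TATAAA), a GC box (GGGCGG), a nuclear receptor core motif (AGGTCA) or an AP-1 site (TGACTCA), and overlapping matches run together. Krt79 lies at chr15:101940275-101940574 on the minus strand, Krt7 at chr15:101412153-101412452 on the plus strand, Krt8 at chr15:102004293-102004592 on the minus strand and Krt18 at chr15:102027966-102028265 on the plus strand. The RefSeq start of Krt7 lies downstream of the start of the GENCODE gene.
Krt79: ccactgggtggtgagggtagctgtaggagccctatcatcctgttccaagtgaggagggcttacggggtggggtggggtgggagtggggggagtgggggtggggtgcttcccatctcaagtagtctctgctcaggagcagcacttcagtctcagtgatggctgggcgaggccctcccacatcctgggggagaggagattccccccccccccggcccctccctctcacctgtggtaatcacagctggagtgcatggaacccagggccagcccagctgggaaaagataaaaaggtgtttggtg
Krt7: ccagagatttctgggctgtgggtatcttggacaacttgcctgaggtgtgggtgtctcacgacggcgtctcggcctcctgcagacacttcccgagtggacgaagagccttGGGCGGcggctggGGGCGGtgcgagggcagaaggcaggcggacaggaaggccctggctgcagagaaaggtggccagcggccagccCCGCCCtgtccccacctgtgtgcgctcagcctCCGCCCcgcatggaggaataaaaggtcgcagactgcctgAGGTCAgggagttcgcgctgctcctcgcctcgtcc
Krt8: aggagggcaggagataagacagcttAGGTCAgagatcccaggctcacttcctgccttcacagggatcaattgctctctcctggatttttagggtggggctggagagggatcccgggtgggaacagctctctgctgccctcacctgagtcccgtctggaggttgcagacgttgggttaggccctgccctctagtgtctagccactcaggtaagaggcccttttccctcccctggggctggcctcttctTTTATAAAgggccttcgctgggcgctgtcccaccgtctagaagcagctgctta
Krt18: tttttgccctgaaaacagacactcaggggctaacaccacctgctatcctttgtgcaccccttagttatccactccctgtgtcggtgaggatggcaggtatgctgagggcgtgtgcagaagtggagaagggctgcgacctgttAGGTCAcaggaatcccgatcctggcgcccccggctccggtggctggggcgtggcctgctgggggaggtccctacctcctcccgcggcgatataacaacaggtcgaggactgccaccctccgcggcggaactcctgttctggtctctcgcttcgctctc
The Krt79 window held none of the 4 motifs. The Krt7 window held 4 GC boxes, 2 on each strand, and 1 nuclear receptor core motif. The Krt8 window held 1 nuclear receptor core motif and a match to the TATA box letters on both strands. The TATA matches lie across the RefSeq start, with first bases at -3 and -1 from it, and whether they act as a TATA box was not tested. The Krt18 window held 1 nuclear receptor core motif. Of 32851 mouse promoter windows of this length, 13.6% held the TATA box, 35.7% the GC box, 16.3% the nuclear receptor core motif and 5.2% the AP-1 site. Windows were found for 35 keratin genes, of which 18, 2, 10 and 1 held these motifs in the same order.

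Krt79 (ENSMUSG00000061397, chr15:101929332-101940324 on the minus strand of GRCm38) is a type II keratin known in mice from the ducts of sebaceous glands and the upper hair follicle. In fat it was higher in SAT HFD than in SAT LFD. It was also higher in SAT of Azin2-/- mice without passing the edgeR test, and higher in GAT WT than in SAT WT. Krt79 was at 20.9, 22.5, 22.03 and 18.6 CPM in SAT HFD replicates 3 to 6, against 2.11, 6.67, 5.34 and 7.64 CPM in SAT LFD replicates 1, 3, 5 and 6. The lowest HFD library was above the highest LFD library. The groups also did not overlap for Krt10, and over all genes tested this held for 34.2%. The log2 fold change was 1.87 (SE 0.363, adjusted p = 0.0114), or 3.64-fold higher in HFD. Krt79 was the only keratin called of 9 tested, in a comparison that called 21.2% of all genes, with 10.8% called higher in HFD. Without the library labelled SAT LFD replicate 1, which had the lowest value, the log2 fold change was 1.59 (SE 0.130, adjusted p = 5.404e-05), and 1 of the tested keratins, Krt79, was called beside 47% of all genes. DESeq2 called 3 keratins for diet (Krt9, Krt10 and Krt79) with 27.6% of all genes, and limma-voom with sample weights 2 (Krt10 and Krt79) with 46.8%.

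In SAT of the Azin2 experiment, Krt79 was at 25.6, 11.8 and 29.1 CPM in Azin2-/- replicates 1 to 3, against 9.46, 8.34, 6.31, 6.32 and 8.31 CPM in WT replicates 1 to 5. All 3 Azin2-/- libraries were above all 5 WT libraries, as for Krt36 in the other direction, and 7.28% of tested genes had groups that did not overlap. The log2 fold change of 1.59 (SE 0.222, a 3.02-fold difference) missed the threshold, with an adjusted p of 0.167, in a comparison that called 0.0059% of genes, 1 of 16948. The lowest Azin2-/- value came from replicate 2, the library with most muscle transcripts, and without it the log2 fold change was 1.85 (adjusted p = 0.0257), where 0.0229% of genes were called. DESeq2 gave an adjusted p of 2.075e-07 and limma-voom with sample weights 0.0106 for the same 8 libraries.

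In GAT the genotypes overlapped. Krt79 was at 16.6, 19.5, 29.7 and 17.6 CPM in GAT Azin2-/- and 15.8, 21.1, 13.8 and 22.8 CPM in GAT WT, a log2 ratio (the log2 fold change) of 0.17 (SE 0.237, adjusted p = 0.656). Both GAT groups stood near the levels of SAT Azin2-/- and of SAT HFD, while SAT WT and SAT LFD were lower. The SAT WT mice had also eaten high-fat food, for fewer weeks than the SAT HFD mice. High-fat food therefore did not go with a high Krt79 level in every SAT group. The part of diet duration, or of other differences between the experiments, was not tested. Whether the genotype effect differed between depots was tested directly, and the log2 fold change in GAT minus that in SAT was -1.42 (SE 0.351). This difference missed the threshold in edgeR (adjusted p = 0.312), while DESeq2 gave an adjusted p of 0.0294 and limma-voom 0.0038.

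The GAT WT libraries were above all 5 SAT WT libraries for Krt79. GAT WT averaged 18.3 ± 4.71 and SAT WT 7.91 ± 1.11 normalised CPM (SD, n = 4 and 5), a log2 ratio of 1.21 (SE 0.183, adjusted p = 0.00851). Among Azin2-/- libraries the depots overlapped, with 20.0 ± 5.93 normalised CPM in GAT and 23.15 ± 7.78 in SAT (SD, n = 4 and 3), a log2 ratio of -0.21 (SE 0.292, adjusted p = 0.636). These depot comparisons share libraries with the genotype comparisons, so they are not separate evidence.

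**Figure D2:**
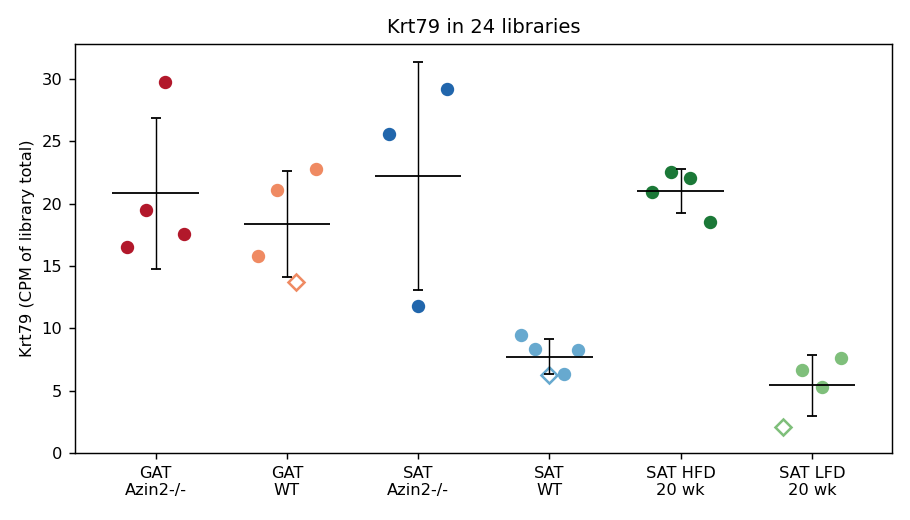
Krt79 level (CPM) in each library by group, with the group mean and SD as horizontal and vertical lines. Open diamonds mark GAT WT replicate 3, SAT WT replicate 3 and the library labelled SAT LFD replicate 1. Both GAT groups, SAT Azin2-/- and SAT HFD lie at 11.8 to 29.7 CPM, and all SAT WT and SAT LFD values lie at 9.46 CPM or below.

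Markers of the cells that Krt79 is known from were low. The summed level of 7 sebaceous gland markers was 5.65 to 9.57 CPM in SAT HFD against 1.94 to 7.34 CPM in SAT LFD, and 1.94 to 5.10 CPM in SAT Azin2-/- against 1.44 to 3.03 CPM in SAT WT. In GAT it was 1.86 to 2.22 CPM in Azin2-/- against 1.70 to 7.21 CPM in WT. Most of the HFD sum was the fatty acid elongase Elovl3, at 3.46 to 7.92 CPM, which brown and beige fat cells also express, while the wax ester synthase Awat1 was at most 0.06 CPM in any library. Krt14 and Krt5, the basal keratinocyte pair, had 1 and 0 counts over all 4 SAT HFD libraries and 0 counts in SAT Azin2-/-. Mean Krt79 was 4.42 and 4.67 RPKM in these groups. In GAT Azin2-/-, with a near mean of 4.38 RPKM of Krt79, Krt14 had 248 counts. GAT WT had a mean of 3.86 RPKM of Krt79 and 0.151 to 19.6 CPM of Krt14, so Krt14 differed widely between groups with near levels of Krt79. The 8 mammary gland markers summed to at most 6.10 CPM in any library, and the milk protein gene Csn2 had 0 counts in all 24. The part of the sebaceous markers in the Krt79 differences was not tested.

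Of the simple keratins, Krt7 and Krt19 were higher in GAT than SAT in both genotypes, and in whole tissue fewer cells of a type and less RNA per cell cannot be told apart. Krt19 (ENSMUSG00000020911, chr11:100140810-100148665 on the minus strand), the type I chain without a tail domain that is common in simple epithelia and mesothelium, was at 4.59, 45.1, 56.0 and 40.7 CPM in GAT WT replicates 1 to 4, against 0.990, 0.536, 0.852, 0.462 and 1.26 CPM in SAT WT replicates 1 to 5. Every GAT WT library was above every SAT WT library, and replicate 1 was the lowest of the GAT WT group by a wide margin. The log2 fold change was 5.42 (SE 0.697, adjusted p = 0.00578), a 42.8-fold difference.

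With Azin2 mutated, Krt19 was at 16.4, 10.1, 7.38 and 2.26 CPM in GAT and 0.499, 0.782 and 0.646 CPM in SAT. The depots again did not overlap, and the log2 fold change was 3.63 (SE 0.678, adjusted p = 0.0215). Krt7, a type II partner of simple epithelia, had the same order of libraries in GAT WT, at 1.98, 19.5, 24.7 and 17.0 CPM, against 0.396, 0.107, 0.225, 0.202 and 0.120 CPM in SAT WT. Its log2 fold change was 6.15 (SE 0.737, adjusted p = 0.00385) in WT. Krt7 in Azin2-/- mice was at 5.57, 5.24, 4.63 and 0.982 CPM in GAT and 0.150, 0.282 and 0.108 CPM in SAT, a log2 ratio of 4.33 (SE 0.739, adjusted p = 0.0191). The depots did not overlap for Krt7 in either genotype, as for 10.6% of tested genes in WT and 31.5% in Azin2-/-. Leaving out GAT Azin2-/- replicate 2 or 3 or SAT Azin2-/- replicate 3 raised the adjusted p of Krt7 to 0.0679, 0.0551 and 0.0795, and that of Krt19 to 0.0692, 0.0577 and 0.0806, with log2 fold changes of at least 3.58.

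Of the keratins tested, 5 of 12 were called between depots in WT (Krt7, Krt19 and Krt79 higher in GAT, Krt20 and Krt36 lower), where 4.33% of all genes were called, 2.47% higher and 1.87% lower. The same 5 were called without GAT WT replicate 3 and SAT WT replicate 3, beside 6.67% of all genes. With marks shared by titles of both depots as a replicate block, 0 keratins and 0% of all genes were called in WT, and Krt7, Krt19, Krt79, Krt20 and Krt36 had log2 fold changes of 6.04, 4.72, 1.02, -4.13 and -2.67 with adjusted p of 0.189 to 0.266. The labels do not say whether a shared mark is a shared mouse. Among Azin2-/- libraries 5 of 10 were called (Krt7, Krt19, Krt14 and Krt80 higher in GAT, Krt36 lower), where 15.2% of all genes were called, 9.13% higher and 6.04% lower. DESeq2 called 7 keratins in each genotype, Krt8 among them, beside 9.98% of all genes in WT and 22.9% in Azin2-/-. Limma-voom called 5 in WT, beside 14.4% of genes, and 3 in Azin2-/- (Krt10, Krt36 and Krt80), beside 39.5%. The median log2 fold change of the tested keratins was 0.73 in WT and 2.39 in Azin2-/-, against -0.01 and -0.03 over all genes tested. These medians cover different members, 12 in WT and 10 in Azin2-/-. Krt14, with 248 counts in GAT Azin2-/- and 0 in SAT Azin2-/-, passed the filter on low counts only through GAT. Krt7 also passed it only through GAT in both genotypes, and Krt20 in WT only through SAT. The numbers of keratins called and the medians therefore depend in part on the filter. No conclusion is drawn from the medians or from setting these numbers against the shares of all genes.

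Krt8 and Krt18, the pair of chains that form filaments together in most simple epithelia, varied more between libraries. Krt8 was at 1.47, 24.9, 161.3 and 15.1 CPM in GAT WT, against 0.421, 1.87, 0.0250, 0 and 0 CPM in SAT WT. One SAT WT library exceeded the lowest GAT WT library, and the log2 fold change of 6.63 (SE 1.63) had an adjusted p of 0.0618. Among Azin2-/- libraries Krt8 was at 19.8, 4.14, 3.76 and 0.447 CPM in GAT, against 0.499, 0 and 0.0269 CPM in SAT, with a log2 ratio of 5.10 (SE 1.55, adjusted p = 0.0647). Krt18 was at 1.34, 11.04, 169.1 and 7.69 CPM in GAT WT, against 1.11, 1.95, 0.125, 0.0866 and 0.0600 CPM in SAT WT. Likewise Krt18 was at 7.71, 1.86, 2.13 and 0.424 CPM in GAT Azin2-/-, against 0.450, 0.125 and 0.0807 CPM in SAT Azin2-/-. The depots overlapped for Krt18 in both genotypes, and its log2 fold changes of 6.03 in WT and 3.59 in Azin2-/- had adjusted p of 0.0789 and 0.0620.

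The pair was far above its group in the epididymis-rich libraries. In the library labelled SAT LFD replicate 1, Krt8 reached 235 CPM, Krt18 268.5 CPM, Krt19 104.9 CPM and Krt7 41.95 CPM. Per length, Krt18 exceeded Krt8 there (187 against 120 RPKM) and in GAT WT replicate 3 (118 against 82.4 RPKM), the 2 libraries with epididymis transcripts. Of the other 7 GAT libraries, Krt8 exceeded Krt18 in 5, for example 12.7 against 7.68 RPKM in GAT WT replicate 2 and 10.1 against 5.36 RPKM in GAT Azin2-/- replicate 1, and lay below it in GAT WT replicate 1 and GAT Azin2-/- replicate 4. In the SAT libraries without epididymis transcripts, Krt18 also exceeded Krt8 in all but SAT HFD replicates 4 and 6. Examples are 2.38 against 1.39 RPKM in SAT LFD replicate 3 and 0.775 against 0.215 RPKM in SAT WT replicate 1. This order was therefore not particular to the epididymis-rich libraries. Krt23, a type I chain of glandular epithelia, reached 99.7 CPM in the library labelled SAT LFD replicate 1 and was at most 0.722 CPM in the other 23, GAT WT replicate 3 among them.

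Mesothelium markers were higher in GAT than in SAT, as Krt7 and Krt19 were. The summed level of 10 markers, among them the surface protein mesothelin (Msln), the uroplakin Upk3b and the transcription factor Wt1, was 183, 183, 119 and 45.7 CPM in GAT Azin2-/- and 88.8, 611, 327 and 675 CPM in GAT WT. In SAT it was 1.79 to 6.68 CPM, and 109 CPM in the library labelled SAT LFD replicate 1. All 10 were called higher in GAT in both genotypes, beside 2.47% of all genes in WT and 9.13% in Azin2-/-. Wt1 had a log2 fold change of 9.70 in WT (adjusted p = 0.000348) and 6.77 in Azin2-/- (adjusted p = 0.00132). Only 3 of the 10 passed the filter on low counts in the genotype comparison within SAT. The others entered the depot tests only through GAT, so the count of 10 depends in part on the filter. The libraries lowest in these markers within each GAT group, WT replicate 1 and Azin2-/- replicate 4, were also the lowest in Krt7, Krt8, Krt18 and Krt19. The 6 simple keratins together came to 9.09 to 27.1 CPM for each 100 CPM of mesothelium markers in the 7 GAT libraries other than WT replicate 3, and to 125.9 CPM in that replicate. In SAT they came to 687.3 CPM in the library labelled SAT LFD replicate 1 and 25.72 to 341.3 CPM in the others, so no fixed ratio held across depots. GAT Azin2-/- replicates 1 and 2 had 183 CPM of the markers each, with 49.65 and 21.28 CPM of simple keratins. The part of the mesothelium in the differences of the simple keratins was not tested.

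**Figure D3:**
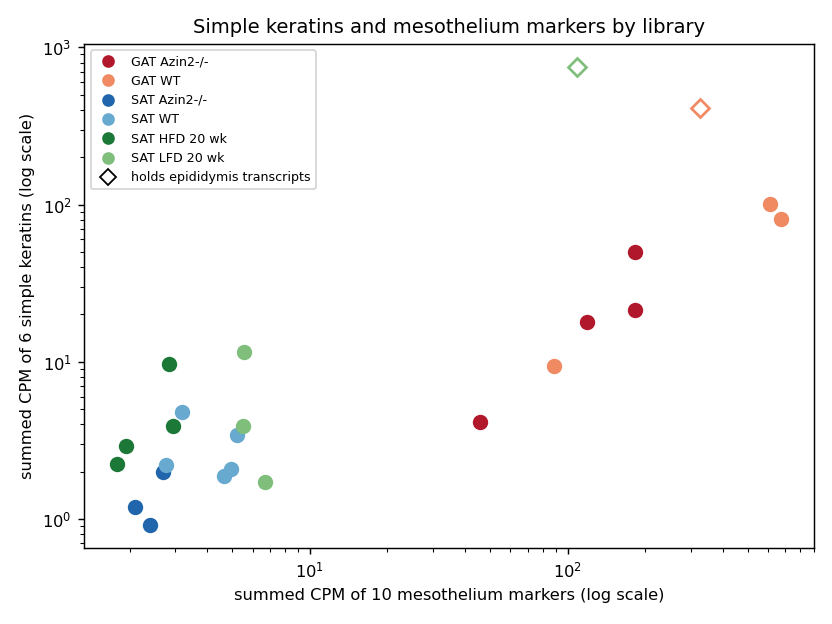
Summed level of the 6 simple keratins (vertical, CPM, log scale) against the summed level of 10 mesothelium markers (horizontal, CPM, log scale), 1 point a library. The 2 open diamonds are the libraries with epididymis transcripts, at 751 and 411 CPM of simple keratins. The other 7 GAT libraries lie at 45.7 to 675 CPM of the markers and the other 15 SAT libraries at 1.79 to 6.68 CPM.

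Between genotypes in GAT no keratin passed the edgeR test without a block. Krt7, Krt8, Krt18 and Krt19 had lower means in Azin2-/-, and the groups overlapped for each. Krt19 averaged 9.01 ± 5.83 in Azin2-/- and 36.7 ± 22.01 normalised CPM in WT (SD, n = 4 each), a log2 ratio of -2.03 (SE 0.756, adjusted p = 0.127). Krt7 averaged 4.10 ± 2.10 in Azin2-/- and 15.8 ± 9.61 in WT, a log2 ratio of -1.95 (SE 0.736, adjusted p = 0.130). For Krt8 and Krt18 the log2 fold changes were -2.83 (adjusted p = 0.209) and -3.94 (adjusted p = 0.129), and without GAT WT replicate 3 they were -1.01 (adjusted p = 0.570) and -1.18 (adjusted p = 0.407). Without GAT WT replicate 1, which held the fewest mesothelium transcripts of its group, Krt7 (log2 fold change -2.32, adjusted p = 0.0391) and Krt19 (-2.40, adjusted p = 0.0406) were called, beside 9.86% of all genes. That replicate was also the lowest of its group in both genes, so leaving it out raises their WT means. Of the 8 fits that left out 1 library, the other 7 kept the count of 0 keratins called. No conclusion is drawn from the 2 calls.

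The test in GAT called 0 of 10 keratins, 3 at an unadjusted p under 0.05, while it called 6.77% of all genes. The genotypes overlapped for all 10 tested keratins and did not for 15.1% of all genes. DESeq2 called 0 keratins, beside 19.1% of all genes, and limma-voom 1, Krt19, beside 38.5%. With marks shared by titles of both genotypes as a replicate block, 5 keratins were called lower in Azin2-/- (Krt7, Krt8, Krt14, Krt18 and Krt19), beside 10.2% of all genes called, and these marks were not taken to pair the libraries. The median log2 fold change of the tested keratins was -1.22, against -0.03 over all genes. None of the 10 mesothelium markers was called, and their median was -1.69, so the markers and the simple keratins lay on the same side of 0.

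No simple keratin passed the diet test on the SAT HFD and SAT LFD libraries, with or without the library labelled SAT LFD replicate 1. A joint fit of all 24 libraries, that library included, called Krt7, Krt8, Krt14, Krt18 and Krt19 lower and Krt79 higher in HFD, beside 31.9% of all genes called. Krt19 was at 0.692, 0.840, 0.822 and 0.731 CPM in SAT HFD, against 104.9, 4.03, 0.631 and 0.774 CPM in SAT LFD. The HFD values lie close together within the span of the LFD values. For Krt7, Krt8, Krt18 and Krt19 the log2 fold changes lay between -5.66 and -5.01 with adjusted p from 0.0714 to 0.126. Without the library labelled SAT LFD replicate 1 they were -1.08, 0.27, -0.39 and -1.31, with adjusted p of 0.279, 0.835, 0.785 and 0.129. Krt8 had 1.52, 0.532, 4.58 and 1.01 CPM in SAT HFD and 235, 2.72, 1.499 and 0.266 CPM in SAT LFD. Krt18 had 1.19, 0.308, 3.49 and 0.590 CPM in SAT HFD and 268.5, 3.41, 1.47 and 0.290 CPM in SAT LFD, so HFD replicate 5 was the highest of its group for both chains. Krt7 had 0.277, 0.140, 0.274 and 0.197 CPM in SAT HFD and 41.95, 1.05, 0.0789 and 0.218 CPM in SAT LFD. The median log2 fold change of the 9 tested keratins was -0.74, against -0.09 over all genes.

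Between genotypes in SAT, edgeR called 0 of 9 keratins, with 2 at an unadjusted p under 0.05, Krt79 and Krt36. DESeq2 and limma-voom each called 1, Krt79, beside 1.79% and 1.74% of all genes. Krt8, Krt18 and Krt19 had log2 fold changes of -1.27, -1.47 and -0.24 with adjusted p of 0.819, 0.705 and 0.851, at levels of at most 1.95 CPM. The median of the tested keratins was -0.64, against 0.01 over all genes.

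Krt20, a type I chain of gut, bladder and Merkel cell epithelia, ran the other way between depots. It was at 0, 0.0258, 0.0512 and 0.0833 CPM in GAT WT, against 0.322, 0.236, 0.451, 0.751 and 0.6002 CPM in SAT WT. The depots did not overlap, though the GAT WT values rest on 6 counts in all, and the log2 fold change was -3.56 (SE 0.651, adjusted p = 0.0176). Without GAT WT replicate 2 the adjusted p was 0.0651. For Azin2-/- mice the Krt20 values were 0.111, 0, 0.0561 and 0.0223 CPM in GAT and 0.400, 0 and 0.0538 CPM in SAT, too low to be tested. On diet it was at 0.221, 0.336, 0.274 and 0.225 CPM in SAT HFD and 0.446, 0.134, 0.210 and 0.121 CPM in SAT LFD, which overlap.

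**Figure D4:**
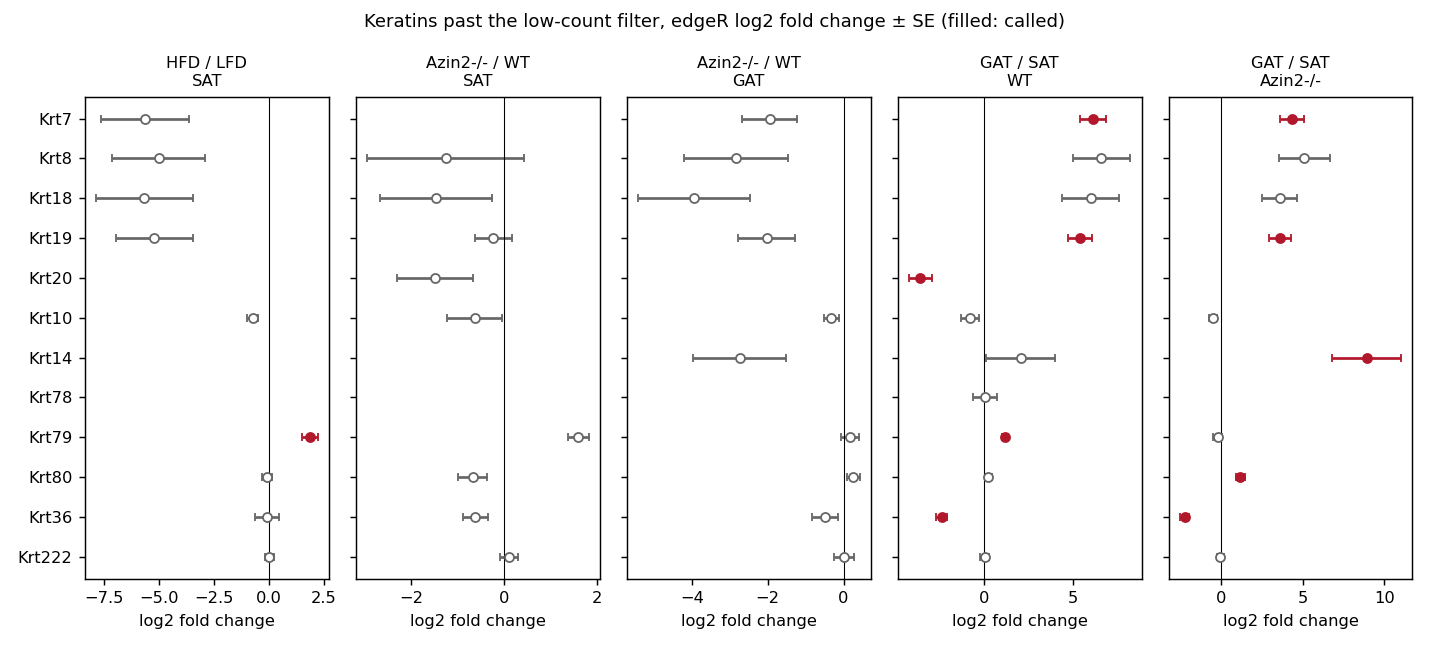
The edgeR log2 fold change with its SE for each keratin that passed the low-count filter, in 5 comparisons with separate horizontal scales. Filled points were called at an adjusted p under 0.05. Krt79 is the filled point for diet, and Krt7, Krt19 and Krt36 are filled in both depot panels.

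The keratins of stratified epithelia were patchy. Krt14, the type I chain of basal cells in skin and glands, was at 1.64, 2.07, 2.98 and 0.0893 CPM in GAT Azin2-/- and 0.151, 19.0, 19.6 and 6.47 CPM in GAT WT. It had 0 counts in all 3 SAT Azin2-/- libraries, and was at 0.223, 0.0215, 10.9, 0 and 0 CPM in SAT WT. Between the Azin2-/- depots Krt14 was called higher in GAT (adjusted p = 0.0481), with 0 counts in SAT and 248 in GAT, at least 58.35-fold higher in GAT when SAT is set to 3 counts over its 3 libraries. Leaving out any 1 SAT Azin2-/- library raised that adjusted p to between 0.0615 and 0.0979. In WT the depots overlapped (log2 fold change 2.08, SE 1.94, adjusted p = 0.555), and in GAT the genotype fold change was -2.74 (SE 1.22, adjusted p = 0.178). In SAT HFD Krt14 was at 0, 0, 0.0249 and 0 CPM, against 40.6, 0.0807, 0 and 0 CPM in SAT LFD.

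Krt5, the type II partner of Krt14 in basal cells, did not follow it in GAT. It had 0 counts in the 7 GAT libraries other than WT replicate 3, while Krt14 had 735 counts in GAT WT replicate 2 and 4 to 233 in the other 6. In GAT WT replicate 3 Krt5 was at 30.6 CPM and Krt15, a further basal type I chain, at 11.9 CPM. In the library labelled SAT LFD replicate 1 Krt5 was at 50.5 CPM, Krt15 at 8.28 CPM and Krt17 at 4.72 CPM. Apart from these and SAT WT replicate 3, the other 21 libraries had at most 0.188 CPM of Krt5, 0.0556 CPM of Krt15 and 0.0774 CPM of Krt17.

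SAT WT replicate 3 held keratins of both skin and hair. There Krt5 was at 13.1 CPM, Krt14 at 10.9 CPM, the upper layer pair Krt1 and Krt10 at 10.5 and 8.77 CPM, and Krt17 at 2.23 CPM. Of the 23 hair and inner root sheath keratins, 20 had at least 3 counts in this library, against 6 in GAT WT replicate 3 and 1 to 3 in each of the other 22. The hair keratins summed to 20.3 CPM in it and to 0.277 to 4.65 CPM in the others. Cornified envelope genes summed to 206 CPM in it, which is within the 96.0 to 302 CPM of the other 23, but it had none of the 18 genes of that list at 0 counts, against 6 to 9 in each of the others. Of this sum 164.3 CPM was Cdsn, which lay at 34.35 to 269.5 CPM in the other 23. Flg (274 counts), Flg2 (34 counts) and Hrnr (13 counts) had reads in this library only, while Sbsn and Sfn lay within the range of the others. The same library was rich in muscle transcripts, and the part of skin or muscle in its keratin levels was not tested.

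Krt36, a type I chain that is known from nail, tongue and hair in mice, was the only hair keratin present throughout. It was at 0.409, 0.645, 0.512 and 0.805 CPM in GAT WT, against 2.55, 2.34, 2.66, 2.69 and 4.62 CPM in SAT WT. The depots did not overlap, SAT WT replicate 3 was near its group median despite its other hair keratins, and the log2 fold change was -2.37 (SE 0.308, adjusted p = 0.00457). Azin2-/- mice had Krt36 at 0.250, 0.419, 0.590 and 0.424 CPM in GAT and 2.05, 1.47 and 1.91 CPM in SAT, a log2 ratio of -2.24 (SE 0.292, adjusted p = 0.0130). Without GAT Azin2-/- replicate 2 or SAT Azin2-/- replicate 3 the Azin2-/- comparison gave adjusted p of 0.0606 and 0.0642. In SAT HFD it was at 1.96, 1.68, 1.39 and 1.46 CPM, against 0.305, 2.37, 1.499 and 2.25 CPM in SAT LFD. The library labelled SAT LFD replicate 1 lay in the range of GAT (0.250 to 0.805 CPM) for Krt36, while the other 15 SAT libraries lay at 1.39 to 4.62 CPM. Neither diet (log2 fold change -0.07, adjusted p = 0.937) nor genotype (-0.62 in SAT, adjusted p = 0.471, and -0.49 in GAT, adjusted p = 0.361) passed the test.

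Krt80, a type II chain found in many epithelia near desmosomes, was called between depots in Azin2-/- mice. It was at 6.65, 6.31, 5.33 and 7.21 CPM in GAT Azin2-/-, against 3.52, 2.44 and 1.53 CPM in SAT Azin2-/-. The depots did not overlap, and the log2 fold change was 1.19 (SE 0.290, adjusted p = 0.0370). The adjusted p was above 0.05, at 0.0522 to 0.101, when any GAT Azin2-/- library or SAT Azin2-/- replicate 3 was left out. In WT it was at 5.88, 4.75, 4.48 and 6.22 CPM in GAT and 4.63, 5.06, 3.08, 5.92 and 3.15 CPM in SAT, which overlap (log2 fold change 0.26, SE 0.210, adjusted p = 0.495). The direct test of that difference gave 0.94 (SE 0.356, adjusted p = 0.386), so the genotypes are not shown to differ. Krt80 was at 3.04, 3.08, 3.06 and 3.65 CPM in SAT HFD and 2.89, 2.93, 2.60 and 4.55 CPM in SAT LFD. An antisense transcript shares 263 exonic bases with Krt80, and shorter ones share 77 with Krt7 and 146 with Krt10, a lincRNA on the opposite strand shares 101 with Krt8, and the sources used here do not give the strand setting of the counting.

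**Figure D5:**
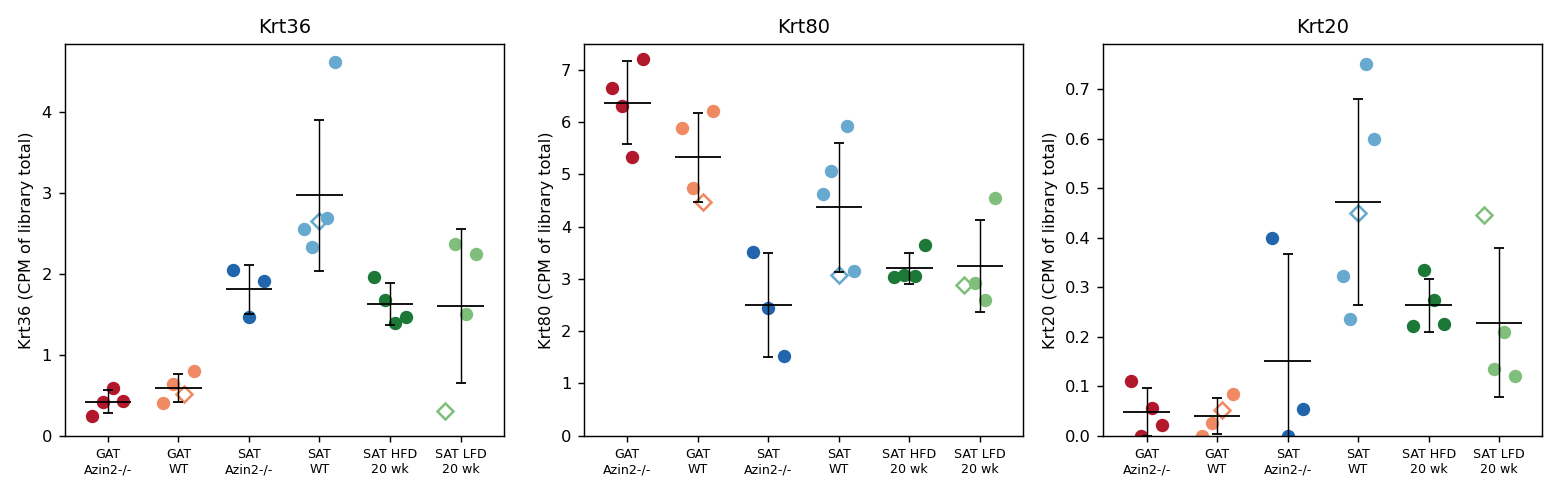
Levels of Krt36, Krt80 and Krt20 (CPM) in each library by group, with group mean and SD. Open diamonds mark GAT WT replicate 3, SAT WT replicate 3 and the library labelled SAT LFD replicate 1. Krt36 is lower in both GAT groups than in the SAT groups except for that LFD library at 0.305 CPM, and Krt20 does not exceed 0.111 CPM in GAT, where error bars are cut at 0.

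Krt10 and Krt222 passed no edgeR test. Krt10 lay at 1.54 to 3.30 CPM in 22 libraries, and at 4.69 CPM in the library labelled SAT LFD replicate 1 and 8.77 CPM in SAT WT replicate 3. It was at 1.65 to 2.19 CPM in SAT HFD against 2.32 to 4.69 CPM in SAT LFD, without overlap. For diet its log2 fold change was -0.74 (SE 0.259, adjusted p = 0.0795), and without that LFD library -0.48 (SE 0.177, adjusted p = 0.0515). Krt222, an atypical keratin-like gene, lay at 3.97 to 9.19 CPM in all 24 libraries. Over all 12 keratins tested for a difference of the genotype effect between depots, edgeR called 0 and 0% of all genes, with 2 keratins at an unadjusted p under 0.05. DESeq2 called Krt14 and Krt79 beside 1.1% of all genes, and limma-voom Krt79 and Krt80 beside 15.1%.

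Genes of the structures that keratins attach to were taken as fixed lists. On the high-fat diet 2 of 16 tested desmosome and hemidesmosome genes were called higher and 2 lower, beside 21.2% of all genes called (median log2 fold change -0.98, against -0.09 over all genes). The hemidesmosome integrin Itga6 (0.88, adjusted p = 0.00599) and the desmosomal cadherin Dsg1a (2.97, adjusted p = 0.00886) rose, and the plakin Ppl (-2.75, adjusted p = 0.0187) fell. The fit without the library labelled SAT LFD replicate 1 called 3 of the 16 higher and 4 lower, beside 47% of all genes. Their median log2 fold change was then 0.27, against -0.02 over all genes, so its sign depended on that library. Of 13 epithelial adhesion and identity genes, 5 were called lower and 0 higher by edgeR, beside 10.4% of all genes called lower, among them the epithelial transcription factors Grhl1 (-1.68, adjusted p = 0.000751), Klf5 (-1.49, adjusted p = 0.0217) and Trp63 (-3.47, adjusted p = 0.0242). Without the library labelled SAT LFD replicate 1 these 3 remained called, with Grhl1 at -1.56, Klf5 at -1.20 and Trp63 at -2.10, and 5 of 13 were lower and 1 higher, a share close to the 47% of all genes called in that fit. Among the other intermediate filament genes the lamins Lmnb1 (1.09, adjusted p = 0.00595) and Lmna (0.75, adjusted p = 0.00742) rose, and of 8 cornified envelope genes the keratinocyte gene Krtdap (2.06, adjusted p = 0.0463) rose. The adipocyte list was also lower in that LFD library, at 10200 summed CPM against 25850 to 26630 CPM in SAT HFD and 33020 to 36440 CPM in the other LFD libraries.

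Between depots a minority of these genes passed the test, in comparisons that called 4.33% of all genes in WT and 15.2% in Azin2-/-. In WT, 2 of 15 desmosome genes were called higher, the plakin Evpl (log2 fold change 2.88, adjusted p = 0.0262) and Pkp2 (0.68, adjusted p = 0.0393), and 2 of 14 adhesion genes, the tight junction receptor Lsr (2.23, adjusted p = 0.00834) and the membrane protease St14 (3.48, adjusted p = 0.0270). Krtdap was lower in GAT in both genotypes (-4.47, adjusted p = 0.0279 in WT, and -3.13, adjusted p = 0.0246 in Azin2-/-). It was the 1 of 7 cornified envelope genes called in WT, and Sbsn (1.28, adjusted p = 0.0420) was higher in GAT of Azin2-/- mice. Among Azin2-/- libraries Lsr (1.63), St14 (2.59) and the tight junction protein Tjp3 (2.49) were higher in GAT and Trp63 was lower (-0.89), of 12 adhesion genes tested. Evpl was the 1 of 14 desmosome genes called there (1.80, adjusted p = 0.0356), which is below the share of all genes. Between genotypes in GAT, where 6.77% of all genes were called, 1 of 15 desmosome genes, 1 of 12 adhesion genes and 1 of 10 other intermediate filament genes were called. Dsg1a (1.75, adjusted p = 0.0408) and Lmna (0.73, adjusted p = 0.0473) were higher and Grhl1 lower (-1.41, adjusted p = 0.0409) in GAT Azin2-/-. In SAT, edgeR called 0 genes of these lists between genotypes, with 9 at an unadjusted p under 0.05, and Dsg1a had a log2 fold change of 0.16 there. Its genotype effect in GAT minus that in SAT was 1.59 (adjusted p = 0.379).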

How the data were processed

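Total RNA of whole subcutaneous or epigonadal fat was sequenced from stranded libraries, per the labels' protocols. The deposited values are whole-number read counts per Ensembl gene that the authors made with cutadapt, STAR and HTSeq 0.6.1p1 on GRCm38, per the submitters' processing notes, which give no version for STAR or cutadapt. Symbols came from GENCODE, and 259 of 49585 identifiers, with 0.0103% of the counts, matched none. Promoter sequences came from RefSeq (GRCm38.p6), and promoters missing from that table, Krt19 and Krt80 among them, were not used here.

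Each comparison was fitted across all genes on its own libraries with edgeR 4.0.16 (R 4.3.3), using filterByExpr with a minimum count of 10 and a minimum total of 15, TMM scaling and the robust quasi-likelihood test. P-values were adjusted by the Benjamini-Hochberg method over all genes tested, and a gene was called at an adjusted p under 0.05. The difference of the genotype effects was an interaction term over 16 libraries. The fits were tested on simulated counts. DESeq2 1.42.0, limma 3.58.1 (voom with sample quality weights), other scaling and filters, a joint fit, a replicate block and leaving out libraries were the alternatives. CPM used the library total, normalised CPM the TMM-scaled total, and RPKM the merged GENCODE exon length. Per-library values are printed for Krt7, Krt8, Krt18, Krt19, Krt79 and every keratin called by edgeR, and up to 3 called genes of smallest p are named from each gene list. The keratins, their classes and the gene lists were chosen with earlier results of these data known.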

Additional observations from a re-analysis of the deposited data

Results flagged for a closer look

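Examined were 50 sets of 4 or 5 libraries, for 9 keratins and the summed hair and inner root sheath keratins. In 14 sets a library lay far from the rest of its group. Chance alone flags about 1 in 20 sets only where values are normally distributed and the sets are independent. Raw CPM was not shown to be normal, and several keratins were flagged in the same library. The chance rate for these values was not tested, so no excess over chance is drawn from the 14.

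The library labelled SAT LFD replicate 1, rich in epididymis transcripts, was above its group for Krt7 (41.95 CPM), Krt8 (235 CPM), Krt18 (268.5 CPM), Krt19 (104.9 CPM) and Krt14 (40.59 CPM). GAT WT replicate 3, which also held epididymis transcripts, was above its group for Krt8 (161.3 CPM) and Krt18 (169.1 CPM). SAT WT replicate 3, rich in muscle transcripts, was above its group for Krt14 (10.94 CPM) and for the summed hair and inner root sheath keratins (20.31 CPM). The part of these other tissues in the values was not tested.

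Among libraries without such transcripts, SAT WT replicate 2 stood above its group for Krt8 (1.866 CPM) and SAT WT replicate 5 for Krt36 (4.622 CPM). Within their groups, SAT HFD replicate 6 (3.654 CPM) and SAT LFD replicate 6 (4.547 CPM) were highest in Krt80, and both held some muscle transcripts. Libraries richer in muscle transcripts were not high in Krt80. SAT LFD replicate 5 (2.603 CPM) and SAT WT replicate 3 (3.08 CPM) were the lowest of their groups, and SAT Azin2-/- replicate 2 was at 2.441 CPM, between the others of its group. The Krt14 value of SAT HFD replicate 5 (0.0249 CPM) was 1 count in a group otherwise at 0.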

How the results depend on the processing

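Krt79 kept its direction for diet, for genotype in SAT and between WT depots under each alternative run. For diet, 3 keratins were called by DESeq2, 2 by limma-voom and 6 by the fit of all 24 libraries, against 1. For genotype in SAT, DESeq2, limma-voom and the fit without SAT Azin2-/- replicate 2 and SAT WT replicate 3 each called 1, against 0. For genotype in GAT, limma-voom called 1, against 0, and put Krt79 at -0.064 log2. Between Azin2-/- depots limma-voom called 3 and the fit of all 24 libraries 2, against 5. For the interaction DESeq2 and limma-voom called 2 each, against 0. The causes were not tested.

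Leaving out 1 library at a time gave 1 keratin called for diet each time, 0 to 1 for genotype in SAT, 0 to 2 for genotype in GAT, 4 to 5 between WT depots, 0 to 4 between Azin2-/- depots and 0 for the interaction. The log2 fold change of Krt79 between GAT genotypes then ran from -0.05781 (without Azin2-/- replicate 3) to 0.3113. No keratin was called between Azin2-/- depots without GAT Azin2-/- replicate 2 or without SAT Azin2-/- replicate 3.

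Numbers or marks in the titles were not taken to pair libraries. The correlation of their deviations was -0.026 to 0.112 for diet, 0.22 and 0.682 in SAT (the higher between its 2 muscle-rich libraries), -0.113 to 0.0135 in GAT, 0.0055 to 0.585 between WT depots and -0.131 to -0.0941 between Azin2-/- depots. With them as a replicate block, 1 keratin was called for diet, 0 for genotype in SAT, 5 for genotype in GAT, 0 between WT depots, 5 between Azin2-/- depots (Krt7, Krt8, Krt14, Krt18 and Krt19) and 0 for the interaction, and Krt79 between Azin2-/- depots was at 0.169 log2.

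Depth limits members near the 3-count limit, such as Krt20 in GAT, and most hair keratins could not be tested.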
